A study of Mus musculus with 6 samples.

Results

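A set of 10 genes was followed here in mouse primary chondrocytes with and without Uhrf1: Fcer1g and Tyrobp, which encode signalling adapters of immune receptors, and the macrophage and leukocyte marker genes Lyz2, Cd14, Cd68, Csf1r, Ptprc, Aif1, Laptm5 and Mrc1. They are 10 of the 23351 genes in the deposited table. They were chosen by name after results of the same comparison were known, and the difference between the groups in Fcer1g and in these markers entered that choice. Their differences between Uhrf1 cKO and Control are therefore a description, with no test of their own.

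The libraries fall into 2 groups of 3. The first holds Uhrf1 cKO chondrocytes, with a conditional knockout of Uhrf1, and the second holds Control chondrocytes. In both groups the source was C57BL/6 knee cartilage taken on postnatal day 3, from which cells were freed with collagenase, grown to confluence and given 100 ng/ml of recombinant human BMP-2, a growth factor of cartilage and bone, for 24 hours. The Cre line, the exact alleles and the genotype of the Control mice are absent from the labels used here, which do not say either whether libraries came from separate animals. The p-values below therefore measure only the spread between these libraries, which may be partly technical. A prefix in the labels also differs between all cKO and all Control libraries, so genotype and what that prefix marks cannot be told apart.

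Each gene has a value per library in FPKM, which corrects fragments for the length of the transcript and the size of the library, so that levels can be compared between genes. Depth in absolute terms is unknown, and relative depth, read from the smallest steps of low values, was 0.864 to 1.01 with Control 1 set to 1. Uhrf1 itself, which encodes the protein that guides the maintenance methyltransferase Dnmt1 to newly replicated DNA, stood at 3.22, 3.17 and 2.73 FPKM in cKO and at 28.2, 22.9 and 30.6 FPKM in Control, 8.96-fold lower in cKO. The cartilage genes that define chondrocytes were abundant in every library. The cartilage collagen Col2a1 had 4524 to 4775 FPKM in cKO and 5767 to 8262 FPKM in Control, and 4 of 6 such genes were called lower in cKO by limma. Across the 11911 genes that could be tested, limma (adjusted p under 0.05) put 9.81% higher in cKO and 7.96% lower. Every cKO library stood above every Control library in 18.4% of these genes and below in 17.5%. The authors' deposited table called 11.7% of its tested genes higher and 11.2% lower.

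Fcer1g encodes the gamma chain shared by several Fc receptors, and Tyrobp encodes DAP12. Both are small membrane adapters with an immunoreceptor tyrosine-based activation motif (ITAM). They lend signalling to receptors that have no signalling tail of their own: on engagement the motif is phosphorylated by Src family kinases and recruits Syk. Both are best known from macrophages, mast cells, natural killer cells and osteoclasts, and cartilage is normally without vessels and poor in such cells.

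Loss of Uhrf1 affects the methylation of CpG dinucleotides, so the regions before the start sites of the 2 most highly expressed of these genes are shown with each CG in capitals. They cover 250 to 51 bases before the RefSeq start, 200 bases each, read on the minus strand from 5′ to 3′ in build GRCm38.p6. That of Fcer1g lies at chr1:171234400-171234599 and holds 3 CpG. That of Lyz2 lies at chr10:117282323-117282522 and holds 1.
Fcer1g: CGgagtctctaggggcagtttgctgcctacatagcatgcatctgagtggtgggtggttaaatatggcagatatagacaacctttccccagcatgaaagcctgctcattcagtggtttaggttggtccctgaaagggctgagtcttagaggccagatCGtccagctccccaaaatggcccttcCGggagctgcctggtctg
Lyz2: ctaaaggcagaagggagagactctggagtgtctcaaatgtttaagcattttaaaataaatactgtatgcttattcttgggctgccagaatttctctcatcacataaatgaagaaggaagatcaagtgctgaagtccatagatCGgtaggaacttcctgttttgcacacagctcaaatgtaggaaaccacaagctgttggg
Methylation was not measured here. In the full window of 300 bases, from 250 before to 50 after the start, Fcer1g had 7 CpG and Lyz2 had 1, against a median of 7 over 32851 RefSeq promoters. RefSeq promoters were matched for 7 of the 10 genes, 8 promoters in all, with 1 to 9 CpG and a median of 3.5. The letters GAGGAA, 1 form of the site that the myeloid factor PU.1 recognises, were searched on both strands. They occurred in 5 of these 8 promoters and in 28.3% of all promoters. These letters were not in the windows of Fcer1g or Lyz2, but other forms of the site were not searched.

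The 10 genes did not move together. Fcer1g was higher in cKO, Lyz2 had its highest values in 2 of the Control libraries, and most of the others were near 1 FPKM in both groups. After the filter on low values, which asks for at least 1 FPKM in 2 libraries, 8 genes were tested, and limma called 1 of them higher in cKO (Fcer1g) and 0 lower. The background over all genes tested was 9.81% higher and 7.96% lower, and since the same contrast chose the genes nothing is read from this count. The median difference of the 8 on the log2(FPKM + 1) scale was 0.43, and that of all genes tested was 0.000386. Fcer1g and Csf1r reached 1 FPKM only in cKO libraries, and Cd14 and Laptm5 did so in only 1 Control library. All 4 thus needed their cKO values to pass the filter, and nothing is read from this median. The cKO libraries stood above all Control libraries in 3 of the 10 (Fcer1g, Csf1r and Ptprc), and the groups overlapped in the other 7. Among all genes tested 18.4% stood above in this way, and nothing is read from this count either.

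**Figure D1:**
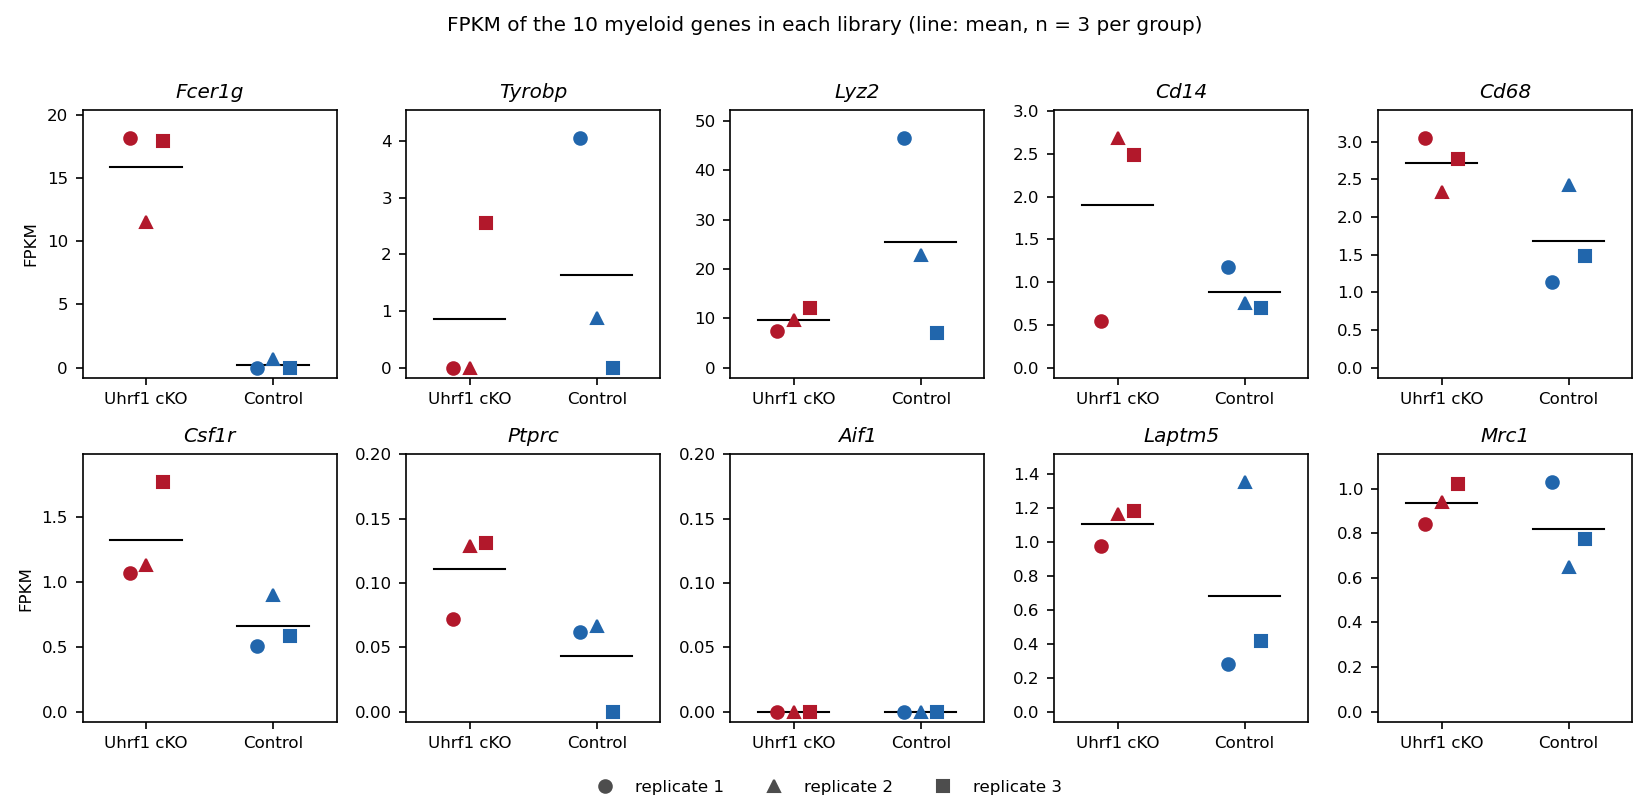
FPKM of each of the 10 genes in the 3 Uhrf1 cKO libraries (red) and the 3 Control libraries (blue), each panel with its own linear axis from 0, with a line at the group mean and a symbol for each replicate number. Fcer1g sits at 11.5 to 18.2 FPKM in cKO and at 0 to 0.702 FPKM in Control, while the groups overlap for Tyrobp, Lyz2, Cd14, Cd68, Laptm5 and Mrc1 and Aif1 is at 0 throughout.

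Fcer1g (chromosome 1, 171229572 to 171234349 in mm10, minus strand, 5 exons) had 18.2, 11.5 and 17.9 FPKM in cKO 1, 2 and 3, against 0, 0.702 and 0 FPKM in Control 1, 2 and 3. Every cKO library was far above every Control library, and the means were 15.8 ± 3.77 FPKM in cKO and 0.234 ± 0.405 FPKM in Control (SD, n = 3 each). The fitted difference was 3.79 ± 0.25 (SE) on the log2(FPKM + 1) scale, a scale that understates changes of low genes. No fold is given, since the Control mean rests on the smallest value step in Control 2. Written as multiples of a step that follows the relative depth of each library, the values were 24, 17 and 26 in cKO and 0, 1 and 0 in Control, though a step need not be 1 fragment. Fcer1g passed the filter only through the cKO libraries. The authors' deposited table gave a log2 fold change of 6.08 with q = 0.335 and did not call the gene.

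Tyrobp (chromosome 7, 30413788 to 30417579), the other adapter, had 0, 0 and 2.56 FPKM in cKO and 4.05, 0.872 and 0 FPKM in Control. Each group has at least 1 library at 0, the groups overlap, and the difference was -0.47 ± 0.63 (SE) on the log2(FPKM + 1) scale. In value steps this was 0, 0 and 3 in cKO and 5, 1 and 0 in Control, so the sign rests on Control 1: without it the difference was 0.16. An exact 0 can be a failed estimate, and of 20 housekeeping genes looked up, 0 had such a value in a library. Of the relatives of these adapters, Cd247 (the CD3 zeta chain of T cells) and Hcst (DAP10, next to Tyrobp on chromosome 7) were at 0 in all 6 libraries.

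Of the 6 genes nearest to Fcer1g on chromosome 1, limma could test 4 and called 1 higher in cKO, against 9.81% of all genes. This was Adamts4, an aggrecan-cleaving protease, with 2.06, 1.93 and 2.34 FPKM in cKO and 1.34, 0.952 and 0.878 FPKM in Control (limma adjusted p = 0.0407). Only 1 Control library reached 1 FPKM, so Adamts4 passed the filter only through the cKO libraries, where it is high. Nothing is read from this count. B4galt3 and Tomm40l were not called, the nuclear receptor Nr1i3 was at 0 throughout, and Apoa2 was above 0 in cKO 3 (0.965 FPKM) and in Control 1 (2.76 FPKM) and at 0 in the other libraries. Around Tyrobp, limma called none of the 3 genes it could test (Aplp1, Sdhaf1 and Lrfn3), against 9.81% called higher and 7.96% called lower among all genes, while Nfkbid and Syne4 were too low to test.

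The genes whose profile over the 6 libraries lay nearest that of Fcer1g were Slpi, Mst1, Xlr3c, Olfr875 and Nxf3, with root mean square distances of 0.195 to 0.295 between centred log2(FPKM + 1) values. Slpi, a secreted inhibitor of leukocyte proteases, had 246, 207 and 255 FPKM in cKO and 15.2, 18.7 and 15.1 FPKM in Control. Mst1, which encodes macrophage-stimulating protein, had 20.4, 15.1 and 17.1 FPKM in cKO and 0, 0.316 and 0 FPKM in Control. None of these 5 genes is a macrophage marker in the lists used here. However, profiles were compared among tested genes only. These held 8 of the 10 genes, Fcer1g included, and 4 of 26 further macrophage genes, so nothing is read from this absence.

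Receptors that use Fcer1g or Tyrobp were mostly absent. Of 21 listed, 11 were at 0 in every library, among them Fcgr1, Fcgr4 and Fcer1a, the ligand-binding chain of the IgE receptor, and 4 reached the filter. Limma called 2 of the 4 higher in cKO (Trem2 and Pira2) and 0 lower, against 9.81% and 7.96% of all genes. Both passed the filter only through the cKO libraries, where they are high, so nothing is read from this count. Trem2, a lipid-sensing receptor that signals through Tyrobp, had 4.36, 3.89 and 5.31 FPKM in cKO and 1.37, 0 and 0.675 FPKM in Control. All cKO libraries were above all Control libraries (difference 1.79 ± 0.29 (SE), limma adjusted p = 0.00268). The authors' deposited table did not call Trem2 (q = 0.295).

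Pira2, an activating paired immunoglobulin-like receptor that signals through Fcer1g, had 2.08, 3.83 and 3.39 FPKM in cKO and 0, 0 and 0.0934 FPKM in Control (difference 1.97 ± 0.21 (SE), limma adjusted p = 0.000296). The groups do not overlap, and like Fcer1g it passed the filter only through cKO libraries. Its value is uncertain, since the genes of this family on chromosome 7 are near-identical and 7 entries of the table share the same interval (3836810 to 3915501). The family as a whole was looked at after the value of Pira2 had been seen, and is given with no test. Its 10 entries on chromosome 7 summed to 9.74, 12.4 and 9.65 FPKM in cKO and to 0.122, 0.148 and 0.0934 FPKM in Control. The sources used here do not say how fragments were split among the copies.

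Within the family, Pira6, which has an interval of its own, had 1.78, 2.49 and 2.08 FPKM in cKO and was listed at 0 in every Control library. Lilra6 had 2.62, 2.86 and 1.93 FPKM in cKO and 0, 0.148 and 0 FPKM in Control. Gm14548 had 1.85, 0.545 and 1.34 FPKM in cKO and was listed at 0 in Control. Lilrb3, which encodes the inhibitory receptor PIR-B and has no ITAM adapter, had 1.41, 1.14 and 0.900 FPKM in cKO and 0.122, 0 and 0 FPKM in Control. These 4 genes and Pira2 stood higher in every cKO library than in any Control library, as did 18.4% of all genes tested. All of them passed the filter only through cKO libraries, and Pira2, Lilra6 and Gm14548 share 1 interval. Nothing is therefore read from this count. Pira1 and Lilra5 were at 0 throughout. Lilrb4, an inhibitory receptor of the family on chromosome 10, had 0, 0 and 0.265 FPKM in cKO and 1.76, 0.539 and 0 FPKM in Control.

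The remaining receptors gave no such pattern. Fcgr3, a low-affinity IgG receptor that needs Fcer1g, had 1.23, 2.20 and 0.839 FPKM in cKO and 2.13, 1.14 and 0.524 FPKM in Control, and was not called (limma adjusted p = 0.825). Clec4d had 0, 0.279 and 0.851 FPKM in cKO and 1.89, 1.16 and 0.266 FPKM in Control, and was not called either. Clec4n, the Fcer1g-coupled receptor Dectin-2, was at 0 in all cKO libraries and at 0.647, 0.346 and 0.319 FPKM in Control, below the filter.

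**Figure D2:**
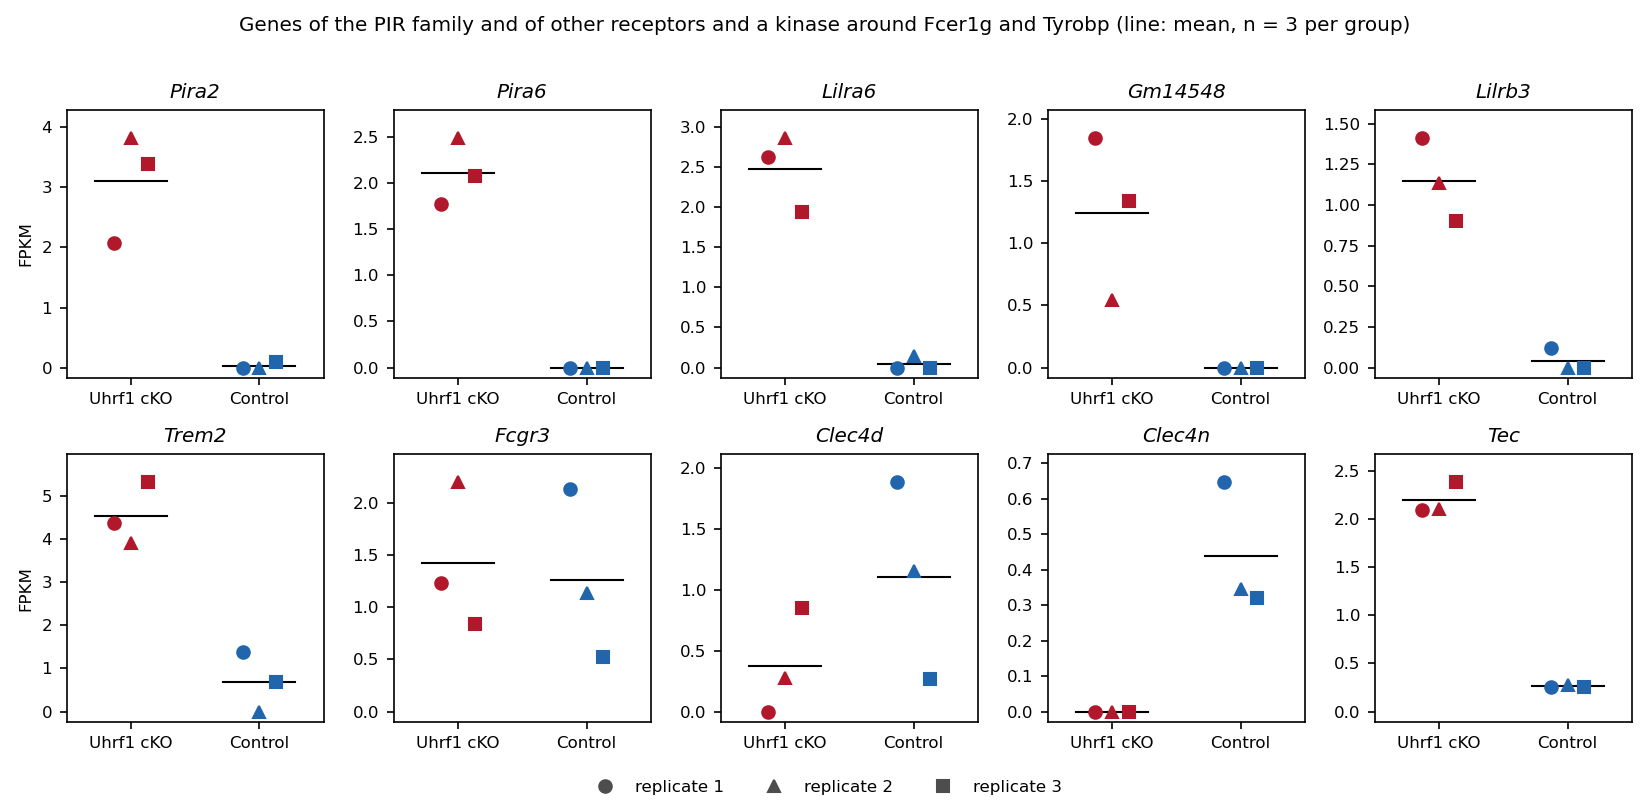
FPKM of 5 PIR family genes, of 4 other receptors that pair with Fcer1g or Tyrobp and of the kinase gene Tec in the Uhrf1 cKO libraries (red) and the Control libraries (blue), each panel with its own linear axis from 0 and a line at the group mean. Pira2, Pira6, Lilra6, Gm14548, Lilrb3, Trem2 and Tec are higher in every cKO library than in any Control library, Fcgr3 and Clec4d overlap, and Clec4n is at 0 in cKO.

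Below the adapters, the general kinases and adapters of the pathway were expressed in both groups and 13 of 23 listed genes were tested. Limma called 1 higher in cKO (Tec) and 0 lower, against 9.81% and 7.96% of all genes, and the median difference was 0.21. Tec, a cytoplasmic tyrosine kinase, had 2.09, 2.10 and 2.38 FPKM in cKO and 0.260, 0.276 and 0.257 FPKM in Control (difference 1.33 ± 0.17 (SE), limma adjusted p = 0.000787). It too passed the filter only through the cKO libraries. Neither Syk (2.85, 2.68 and 2.40 FPKM in cKO and 2.21, 1.96 and 2.30 FPKM in Control) nor the Src family kinase Lyn (3.41, 3.44 and 3.70 FPKM in cKO and 2.56, 2.44 and 1.53 FPKM in Control) was called, with limma adjusted p = 0.396 and 0.0672. The authors' deposited table called Lyn higher (q = 0.0234). Lat2, an adapter of mast cells and B cells, was at 0 in all cKO libraries and had 1.45, 1.03 and 0 FPKM in Control. Inpp5d went the other way but was too low to test, with 0.551, 1.05 and 0.788 FPKM in cKO and 0.0680, 0 and 0.0670 FPKM in Control. Of the 13 tested, 8 stood above Control in every cKO library and 0 below, against 18.4% and 17.5% of all genes. Tec and Plcg2 among the 8 passed the filter only through cKO libraries, so nothing is read from this count. Btk and Lat were at 0 in every library.

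Among the marker genes, Lyz2 (chromosome 10, 117277541 to 117282272), the lysozyme of macrophages and neutrophils, was the most abundant in Control. It had 7.41, 9.56 and 12.0 FPKM in cKO and 46.6, 22.9 and 7.02 FPKM in Control. The cKO libraries lie together between the extremes of Control: Control 1 and Control 2 were above all of them and Control 3 was below. The means were 9.65 ± 2.28 FPKM in cKO and 25.5 ± 19.9 FPKM in Control (SD, n = 3 each), and the difference was -0.99 ± 0.64 (SE) on the log2(FPKM + 1) scale, not called by limma. Without Control 1 the difference shrank to -0.40 and the gene was not called. Without Control 3 the difference was -1.68 and the gene was called lower. The authors' deposited table also called it lower, with a log2 fold change of -1.40 and q = 0.00052. Lyz1, its near copy on the same chromosome, stayed at 0.302 to 0.891 FPKM in cKO and 0.283 to 0.862 FPKM in Control, and reads could be shared between the 2.

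The profiles nearest that of Lyz2 were Rps15a-ps4, Lat2, Clec4d, Apoc1 and Adhfe1, with distances of 0.419 to 0.479, larger than those around Fcer1g. Fcer1g and Lyz2 left out, 29 macrophage genes (from the 10 and a further list) were above 0 in a Control library. Control 1 was the highest Control in 16 of them (55.2%) and Control 3 the lowest in 17 (58.6%). Over 6063 genes above 0 in a Control library and no higher in mean level these shares were 35.8% and 31.4%. The genes share their libraries, so this is a description of those libraries.

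Cd14, Cd68, Csf1r, Ptprc, Laptm5 and Mrc1 were low in both groups. Cd14, a co-receptor for bacterial lipopolysaccharide, had 0.547, 2.69 and 2.49 FPKM in cKO and 1.18, 0.759 and 0.700 FPKM in Control. Its lowest and its 2 highest values were all in cKO, and without cKO 1 the difference grew to 0.94 (0.54 with all libraries) and was called higher. Cd68, a lysosomal membrane glycoprotein of macrophages, had 3.05, 2.34 and 2.77 FPKM in cKO and 1.13, 2.42 and 1.49 FPKM in Control, so that the groups overlap only through Control 2.

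Csf1r, the receptor of the macrophage growth factor M-CSF, had 1.07, 1.13 and 1.77 FPKM in cKO and 0.505, 0.900 and 0.581 FPKM in Control. The groups do not overlap, but limma did not call the gene (difference 0.48 ± 0.20 (SE)), and its values were 11, 13 and 20 steps in cKO and 6, 10 and 7 steps in Control. Ptprc, which encodes the common leukocyte antigen CD45, had 0.0720, 0.129 and 0.131 FPKM in cKO and 0.0622, 0.0665 and 0 FPKM in Control. That is 1 or 2 steps in cKO and 0 or 1 step in Control, too low to test.

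Laptm5, a lysosomal membrane protein of blood cells, had 0.974, 1.16 and 1.18 FPKM in cKO and 0.281, 1.35 and 0.415 FPKM in Control, with Control 2 above every cKO library. Mrc1, the macrophage mannose receptor, had 0.841, 0.938 and 1.02 FPKM in cKO and 1.03, 0.647 and 0.775 FPKM in Control. Its fitted difference was 0.09 ± 0.18 (SE), and its interval is shared in the table with the microRNA gene Mir511, listed at 0. Aif1, the calcium-binding protein IBA1 of macrophages and microglia, was at 0 in all 6 libraries.

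In order of mean level, cKO ran Fcer1g, Lyz2, Cd68, Cd14, Csf1r, Laptm5, Mrc1, Tyrobp, Ptprc and Aif1. In Control, Lyz2 came first at 25.5 FPKM and Cd68 next at 1.68 FPKM, with Tyrobp at 1.64 FPKM and Fcer1g at 0.234 FPKM. From Cd68 down to Tyrobp, neighbours in the cKO order had overlapping ranges, so that this stretch of the order is not resolved. Fcer1g and Lyz2 were above all of it in every cKO library, and their own ranges overlapped, at 11.5 to 18.2 and 7.41 to 12.0 FPKM.

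Further macrophage genes were as sparse. Of 26 listed, 2 were at 0 in every library (Cd163 and Ncf4) and 19 stayed below 1 FPKM throughout. Spi1, the gene of PU.1, was at 0 in all cKO libraries and above 0 in Control only in Control 2 (0.289 FPKM). Adgre1, which encodes F4/80, had 0.117, 0 and 0 FPKM in cKO and 0.406, 0.760 and 0.10 FPKM in Control. Cybb, Ms4a7 and Ms4a6c were at 0 in all cKO libraries and above 0 in at least 2 Control libraries. Of the 4 genes tested, limma called Folr2, a folate receptor of tissue macrophages, higher in cKO and 0 lower, against 9.81% and 7.96% of all genes. Folr2 had 1.2, 3.58 and 2.55 FPKM in cKO and 0, 1.11 and 0.683 FPKM in Control (adjusted p = 0.0482 in limma). It passed the filter only through cKO libraries, and the list had no call without cKO 2, cKO 3, Control 1 or Control 3. Ctss, Mertk and Tmem119 were not called.

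Summed without Fcer1g and Lyz2, the other 34 macrophage genes reached 18.7, 22.7 and 31.0 FPKM in cKO and 30.1, 24.3 and 15.7 FPKM in Control. The groups overlap in this sum. It is a plain total of FPKM, with Mertk (3.18 to 5.44 FPKM) and Tmem119 (3.04 to 4.43 FPKM) among its large terms. Which cells the Fcer1g transcript came from was not tested. In bulk RNA, fewer cells of a type and less RNA per cell cannot be told apart. Of the other cells known for Fcer1g, 8 of 10 mast cell and basophil genes were at 0 in every library, including Cpa3, Mcpt4, Ms4a2 and Fcer1a, and the highest value of the list was 0.164 FPKM. Neutrophil genes reached at most 1.55 FPKM (S100a8 in cKO 3, at 0 elsewhere), and lymphocyte and natural killer cell genes at most 0.657 FPKM. Endothelial and erythroid genes reached at most 0.943 and 0.205 FPKM. None of these 5 lists had a gene that passed the filter.

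**Figure D3:**
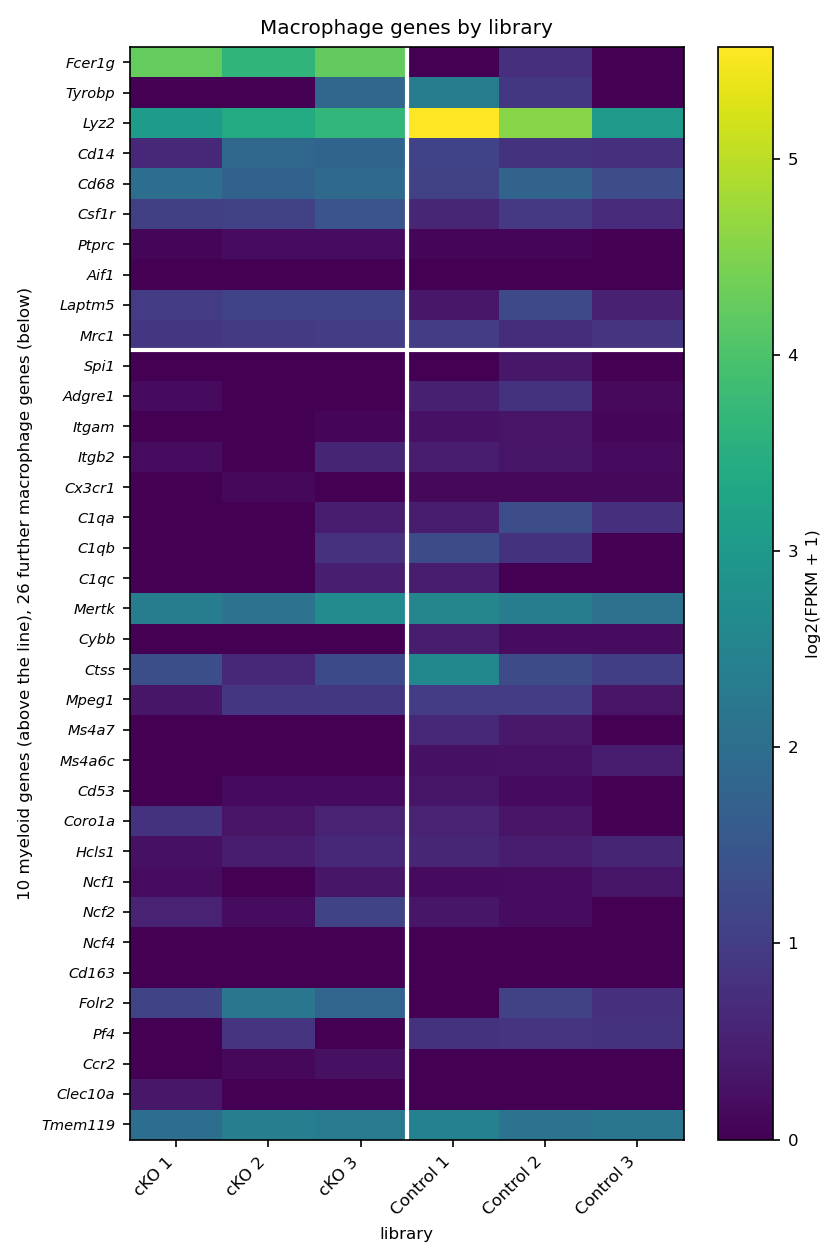
Heat map of log2(FPKM + 1) for the 10 genes (above the white line) and 26 further macrophage genes (below it), with the 3 Uhrf1 cKO libraries on the left and the 3 Control libraries on the right. Fcer1g is bright in cKO only, Lyz2 is brightest in Control 1, and most of the other rows are dark in all 6 libraries.

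Osteoclasts also use both adapters. Of 10 osteoclast genes 3 were tested and limma called 0, against 9.81% higher and 7.96% lower among all genes. Ctsk (cathepsin K) had 96.4, 105 and 106 FPKM in cKO and 114, 132 and 119 FPKM in Control, lower in every cKO library but not called (limma adjusted p = 0.0744). Acp5, the tartrate-resistant phosphatase, had 4.61, 4.08 and 3.63 FPKM in cKO and 0.796, 1.14 and 4.01 FPKM in Control and was not called. Dcstamp and Calcr were at 0 throughout, and the RANK receptor gene Tnfrsf11a was above 0 only in cKO 3 (0.0676 FPKM). Without Control 3 limma called 1 of the 3 higher, and without Control 1 it called 1 lower.

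Of 10 listed ligands that draw or feed myeloid cells, 8 were tested, and limma called 3 higher in cKO and 0 lower, against 9.81% and 7.96% of all genes. The chemokine genes Ccl2 and Ccl7, which attract monocytes, were higher in every cKO library. Ccl2 had 35.8, 42.8 and 38.3 FPKM in cKO and 17.0, 11.8 and 20.7 FPKM in Control, 2.37-fold higher in cKO (limma adjusted p = 0.00136). Ccl7 had 34.4, 34.9 and 33.4 FPKM in cKO and 23.2, 10.3 and 16.4 FPKM in Control, 2.06-fold higher (limma adjusted p = 0.0106).

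Csf1r has 2 known ligands, and they differed in level. Il34 had 3.51, 3.97 and 4.90 FPKM in cKO and 1.01, 2.38 and 1.40 FPKM in Control, 2.59-fold higher (limma adjusted p = 0.0111). Csf1, which encodes M-CSF, had 223, 238 and 242 FPKM in cKO and 212, 185 and 214 FPKM in Control. Every cKO library was above every Control library there too, but the difference of 0.21 was not called (limma adjusted p = 0.118). Kitl, which encodes stem cell factor, had 0.956, 1.65 and 1.68 FPKM in cKO and 2.07, 2.52 and 2.38 FPKM in Control, with every cKO library below every Control library, and was not called (limma adjusted p = 0.116). The median difference of the 8 ligands tested was 0.06.

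Cd14 works with the lipopolysaccharide receptor Tlr4 and its partner Ly96. Neither was called: Tlr4 had 12.6, 9.82 and 8.67 FPKM in cKO and 10.7, 9.34 and 7.61 FPKM in Control, and Ly96 had 10.3, 16.1 and 8.55 FPKM in cKO and 11.1, 13.5 and 11.7 FPKM in Control. Of 17 genes of this pathway 13 were tested, and limma called Lbp, Tlr2 and Irak2 higher in cKO and 0 lower, against 9.81% and 7.96% of all genes. Lbp, the lipopolysaccharide-binding protein, had 7.37, 5.90 and 5.59 FPKM in cKO and 3.85, 4.82 and 3.40 FPKM in Control, 1.56-fold higher (limma adjusted p = 0.0446). Tlr2, a receptor for bacterial lipoproteins, had 7.94, 8.18 and 7.23 FPKM in cKO and 5.0, 4.85 and 4.36 FPKM in Control, 1.64-fold higher (limma adjusted p = 0.00764). Irak2, a kinase below the receptors, had 3.26, 2.58 and 4.02 FPKM in cKO and 1.95, 1.70 and 1.07 FPKM in Control, 2.09-fold higher (limma adjusted p = 0.0312). The count of 3 fell to 1 without cKO 1, cKO 3 or Control 3.

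Cd68 and Laptm5 are lysosomal proteins of blood cells, and the general lysosome, which every cell has, was measured with a list of its own. All 23 listed genes were tested, and limma called 16 higher in cKO and 0 lower, against 9.81% and 7.96% of all genes. The called genes were 1.19-fold to 2.15-fold higher, the median difference over the 23 was 0.41 against 0.000386 over all genes, and all cKO libraries stood above all Control libraries in 18, against 18.4% of all genes. Laptm4b, a relative of Laptm5, had 23.9, 25.3 and 24.6 FPKM in cKO and 10.5, 13.6 and 10.2 FPKM in Control (limma adjusted p = 0.000372). Grn, which encodes progranulin, had 169, 166 and 181 FPKM in cKO and 87.8, 92.4 and 102 FPKM in Control, 1.82-fold higher (limma adjusted p = 0.000122).

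Tpp1, a lysosomal peptidase, was 1.70-fold higher in cKO (limma adjusted p = 0.000434). Lamp1 and Lamp2, the widely expressed relatives of Cd68, were 1.33-fold and 1.34-fold higher and were called, while Lamp3 was at 0. Laptm4a, the other relative of Laptm5, had 337, 289 and 304 FPKM in cKO and 395, 353 and 319 FPKM in Control and was not called. Cd68 and Laptm5 themselves each had a ratio of means (cKO over Control) of 1.62, and limma called neither. Both had far lower FPKM than the listed lysosome genes.

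Other relatives varied. Ptpre, a receptor phosphatase related to Ptprc, was 2.54-fold higher in cKO by its means, with a Control mean of 0.931 FPKM (limma adjusted p = 0.0145), and Ptpra was not called. Mrc2, the collagen-binding relative of Mrc1, was lower in cKO, with 39.8, 37.6 and 42.0 FPKM there and 46.8, 54.0 and 56.1 FPKM in Control (limma adjusted p = 0.0217), whereas Ly75 and Pla2r1 were not called. Aif1l, the close relative of Aif1, had 1.69, 1.62 and 2.25 FPKM in cKO and 4.15, 4.44 and 2.32 FPKM in Control, lower in every cKO library but not called (limma adjusted p = 0.0572). Of the receptors related to Csf1r, Flt3 was at 0, Kit stayed at or under 0.129 FPKM, and limma called neither Pdgfra nor Pdgfrb. The authors' deposited table called Pdgfra lower (q = 0.00139) and Aif1l lower (q = 0.00767).

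**Figure D4:**
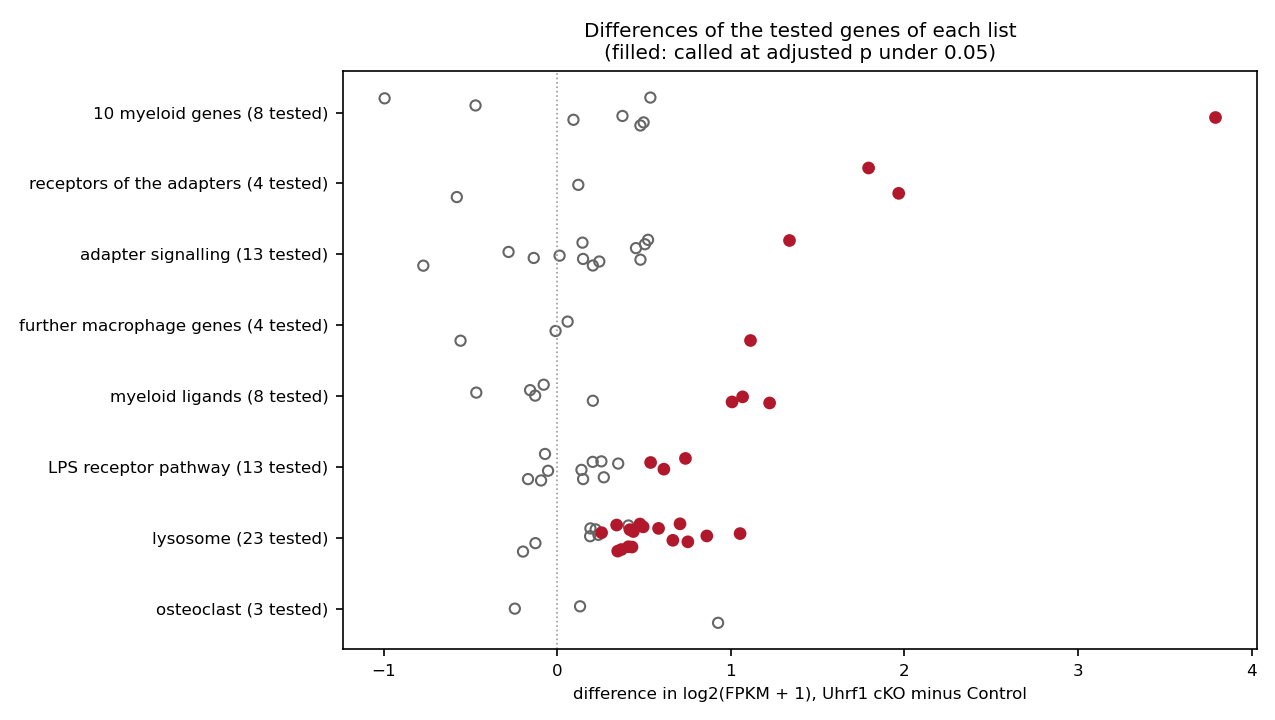
Difference in log2(FPKM + 1), Uhrf1 cKO minus Control, for each tested gene of 8 gene lists (1 list a row; the position within a row has no meaning). Filled points were called by limma at an adjusted p under 0.05, and open points were not. Among the 10 myeloid genes only Fcer1g is filled. Of the lysosome genes 16 of 23 are filled, all to the right of 0. The lysosome genes had higher FPKM than most of the 10, so these counts are not set against each other.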

How the data were processed

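RNA was measured in 6 libraries made with a stranded mRNA kit from total RNA with an integrity number over 8, per the labels' protocols. TopHat mapping to mm10 and analysis with Cufflinks are recorded in the submitters' processing notes, with versions, annotation and strand setting not given in the sources used. The authors deposited 1 table of 23351 genes with FPKM per library, and with their own log2 fold change, test statistic (a score), p-value and q-value. Their test left out 8 of the 10 genes.

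Genes that reached 1 FPKM in 2 or more libraries entered a two-sided limma fit on log2(FPKM + 1) (limma 3.58.1, R 4.3.3, moderated with a trend and robustly), with Benjamini-Hochberg adjustment over all genes tested and a threshold of 0.05. The script was tested on simulated data. Fitted differences are cKO minus Control on that scale, and folds are ratios of mean FPKM. Relative depth and value steps came from low values. A step was accepted within 0.02 of a whole number plus 1% of the value. Gene coordinates are those of the table, counted from 1.

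The members, lists, named-gene rule and alternatives were chosen with earlier results of these data known. Named are the 10 genes, Uhrf1, up to 4 called genes a list by ratio (else the 2 highest), listed relatives, 3 neighbours on each side of Fcer1g and Tyrobp and 5 nearest profiles of Fcer1g and Lyz2. Other named list genes and the PIR family were picked after their values were seen. Some genes that this rule names are not reported here. For 3 symbols RefSeq synonyms were used. Alternatives were other filters, pseudocounts and scalings, a replicate block, the authors' test and leaving out each library.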

Additional observations from a re-analysis of the deposited data

How the results depend on the processing

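Whether the replicate numbers pair the samples is unknown. Correlations of same-numbered deviations were 0.169, 0.0258 and -0.0443, and those of differently numbered ones ran from -0.14 to 0.13, which does not settle it. With the replicate block limma called 1151 genes higher and 946 lower, with a difference for Fcer1g of 3.79. Median scaling gave 1039 higher and 1282 lower, against 1168 and 948 as deposited, and called 1 osteoclast gene lower. It also called 12 of 23 lysosome genes higher, against 16 as deposited. With all genes above 0 tested, 3 receptors (2 higher, 1 lower), 2 adapter signalling genes and 0 further macrophage genes were called. At 5 FPKM or more 0 receptors, 0 signalling genes and 0 further macrophage genes were called, since few or none passed. With a pseudocount of 0.1, 0 further macrophage genes were called, and the cause was not tested. The authors' deposited table called 0 receptors and 0 further macrophage genes, but its test covered only 1 and 2 of them, without Pira2 or Folr2. It gave log2 fold changes of 6.08 for Fcer1g (q = 0.335) and -1.40 for Lyz2 (q = 0.00052).

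Leaving out each library in turn gave 775 to 1089 genes higher and 502 to 930 lower. The counts called were 1 to 2 of the 10 genes, 2 to 2 receptors, 1 to 2 signalling genes, 0 to 1 further macrophage genes, 1 to 2 pathway genes of the lipopolysaccharide receptor, 2 to 4 ligands, 12 to 16 lysosome genes and 0 to 1 osteoclast genes. Differences ran from 3.66 to 4.05 for Fcer1g, which was chosen for this difference, and from -1.68 to -0.40 for Lyz2. That of Tyrobp changed sign without Control 1, at 0.16, and ran from -1.08 to 0.16. Zero and low values limit the markers near 1 FPKM.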
